A study of Drosophila melanogaster with 2 samples.

Results

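The genes described here are 10 core components of the Ras and MAP kinase pathway of Drosophila melanogaster, taken by name from the 13945 protein-coding genes annotated on the chromosome arms. They are 2 receptors, Egfr and tor, and 8 intracellular components, drk, csw, Sos, Ras85D, Raf, ksr, Dsor1 and rl. The study mapped where CG2129, expressed as a fusion with enhanced green fluorescent protein (eGFP), was recovered on the genome, by chromatin immunoprecipitation with an antibody against GFP followed by sequencing (ChIP-seq). The material was whole embryos of 0 to 4 h, from a transgenic strain whose insertion targets CG2129, in 2 biological replicates that form 1 group. All cell types of the embryo were mixed, the labels do not say whether an untagged copy of CG2129 was also present, and there was no second condition to compare. The deposited data are peak lists on the dm6 assembly, with a ranked and a thresholded list for each replicate. The pooled replicates have 2 ranked lists, 1 thresholded list and 1 conservative list.

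In this pathway a receptor tyrosine kinase that has bound its ligand recruits an adaptor and a guanine nucleotide exchange factor, which loads the small GTPase Ras with GTP. Ras then starts a relay of kinases, from Raf to a MAP kinase kinase and a MAP kinase, that scaffold proteins hold together. In the early fly embryo the pathway is known for patterning the termini through Torso and the ventral ectoderm through the EGF receptor.

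None of the 10 genes was bound in the pooled thresholded list, where bound means a peak summit within 500 bp of any annotated transcription start site (TSS) of the gene. Among all protein-coding genes 17.3% were bound by that definition, 2418 of 13945. A count of 0 of 10 allows a share of up to 30.8% (upper limit of the exact 95% Clopper-Pearson interval, which covers counting error only), so it does not separate these genes from the background. For the receptors, 0 of 2 allows up to 84.2%, and for the intracellular components 0 of 8 allows up to 36.9%, so no contrast between receptors and intracellular components could be drawn from this list. Each replicate's own thresholded list gave the same count of 0 of 10, beside 14.9% of all protein-coding genes in replicate 1 and 12.2% in replicate 2. In the conservative pooled list 1 of 10 was bound, Raf, beside 16.8% of all protein-coding genes. Because no core gene was bound in the pooled thresholded list, no genes are named as nearest to one in signal.

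The thresholded lists were not the whole record. Each ranked list holds every candidate peak with a signal, whose scale the deposited text does not state, and an irreproducible discovery rate (IDR), which estimates how likely a peak is to fail to recur between rankings. Every thresholded peak had an IDR of 0.01 or less, that is a −log10 IDR of at least 2. In the pooled ranked list 8 of the 10 genes had some peak within 500 bp of a TSS, beside 60.9% of all protein-coding genes. The same count, 8 of 10, was found in the ranked list of replicate 1 and in that of replicate 2, beside 58.1% and 58.1% of all genes. The 8 best pooled signals ran from 17.1 to 135.1 with a median of 31.3, and the median over the 8491 protein-coding genes with a ranked peak was 22.8. By role, 1 of 2 receptors and 7 of 8 intracellular components had a pooled ranked peak. When ranked peaks were kept by an IDR of 0.01 or less alone, a rule added after the data were seen, Ras85D was the only core gene kept in the main pooled ranked list (17.7% of all protein-coding genes), in replicate 1 (15.2%) and in replicate 2 (12.4%). The other pooled ranked list kept Ras85D and Raf (17.1%).

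**Figure D1:**
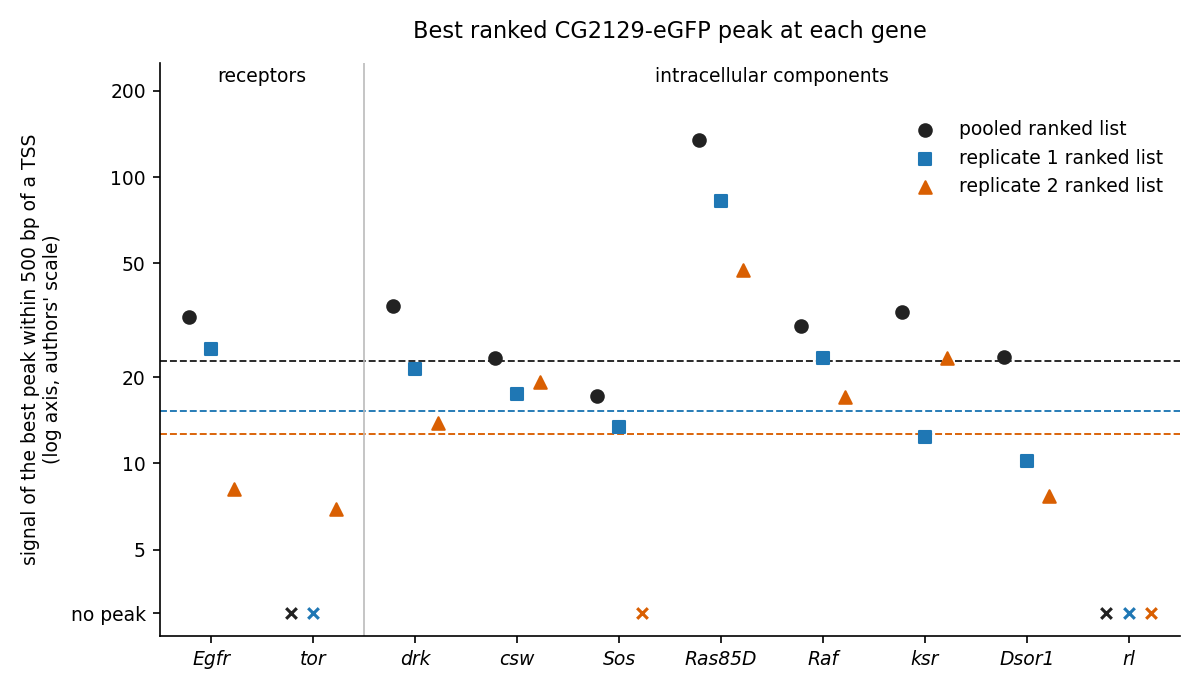
Signal of the strongest ranked peak within 500 bp of a TSS (vertical log axis, authors' scale) for each core gene (horizontal axis) in the pooled list and each replicate's list. Crosses mark no peak, and dashed lines mark the median over all protein-coding genes with a peak in the list of the same colour. Ras85D stands highest in all 3 lists, and rl has no peak in any.

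Egfr (FBgn0003731), the receptor for Spitz and related EGF-like ligands, had 4 weak summits in the pooled ranked list at its 2 start sites on chromosome arm 2R (dm6). The strongest, chr2R:21546340-21546743, had its summit in an intron, 101 bp upstream of the internal start site at 21546643, with a signal of 32.4 and rank 2621 of 47947. Its −log10 IDR was 0.0879 in the main pooled list and 0.991 in the other. The next, with a signal of 28.4, lay 423 bp upstream of the distal start site at 21522420, within reach of a TSS of CG30289. The replicates placed their best Egfr peak at different positions: replicate 1 had a signal of 25.0 at 476 bp upstream of the distal site, and replicate 2 had 8.14 at 77 bp downstream of it. These 2 peaks did not overlap. Replicate 1 also had a peak of 19.0 at the internal site, where replicate 2 had none.

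The second receptor, tor (FBgn0003733), encodes Torso, the receptor that specifies the embryo's ends. It had no ranked peak within 500 bp of its start site at 7709184 in the pooled lists or in replicate 1. Replicate 2 listed 1 peak there, with a signal of 6.91, 178 bp upstream, and a −log10 IDR of 0.0275. That signal was above those of 16.2% of the 8104 genes with a peak in the list. The nearest pooled ranked summit was 1054 bp from the start site and the nearest thresholded summit 32797 bp away, at U2A.

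The adaptor drk (FBgn0004638), the fly Grb2, couples phosphorylated receptors to Sos. Its best pooled peak, chr2R:13502025-13502428, was the strongest of the core set after that of Ras85D, with a signal of 35.5, 66 bp downstream of a start site in its 5′ UTR. The replicates had 21.3 (replicate 1) and 13.8 (replicate 2) at summits 8 bp apart, and the shorter peak lay wholly within the longer. Its −log10 IDR was 1.60 and 1.37 in the pooled lists, 1.14 in replicate 1 and 0.310 in replicate 2, all below the threshold. The summit also lay within 500 bp of a start site of mars, the divergent neighbour, so the peak cannot be given to drk alone.

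The phosphatase csw (FBgn0000382), Corkscrew, is the fly SHP2 and acts positively in this pathway. Its best pooled peak had a signal of 23.4, 286 bp downstream of the start site at 2102289 on the X chromosome, in 5′ UTR. Replicate 2 had 19.2 at the same start site, whereas replicate 1 had 17.5 at the start site at 2094234, so the 2 summits were 8096 bp apart. No −log10 IDR of a best csw peak exceeded 0.238 in any ranked list. The exchange factor Sos (FBgn0001965), which loads Ras with GTP, had the weakest pooled peak of the set, a signal of 17.1 at 417 bp upstream of its start site on chromosome arm 2L. Replicate 1 had 13.4 there and replicate 2 listed no peak. That summit is also within 500 bp of a start site of CG16888.

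Ras85D (FBgn0003205), the Ras GTPase itself, had by far the strongest peak of the core genes. It lies at chr3R:9512895-9513087 (dm6), with its summit at 9513046 in the 5′ UTR, 21 bp downstream of the single Ras85D start site at 9513067 on the minus strand. Its pooled signal of 135.1 was rank 414 of 47947 and exceeded the best signal of 92.8% of the 8491 genes with a ranked peak. Replicate 1 had 82.5 (rank 366 of 40775) and replicate 2 had 47.4 (rank 644 of 47717), with summits 27 bp apart and an overlap of 95% of the shorter peak. The −log10 IDR was 4.57 in the main pooled list, 4.41 in the other, 5 (the cap) in replicate 1 and 3.41 in replicate 2, so the peak passed the threshold in all 4 ranked lists. A second summit 185 bp upstream had a pooled signal of 72.7 and a −log10 IDR of 2.69, but 1.71 in the other pooled list. Both summits are also within 500 bp of the start site of Rlb1, which is transcribed away from Ras85D, so the signal belongs to a shared promoter region.

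The bases between the start sites of Ras85D and Rlb1 are shown because the only TATCGATA near a best ranked summit of the core genes lies at their Ras85D end, between that start and the second summit. TATCGATA is the core of the DNA replication-related element (DRE), a common fly promoter motif. The stretch is chr3R:9513068-9513326 (259 bases, dm6, read 5′ to 3′ on the minus strand, the Ras85D strand, from the NCBI Release 6 genome) and ends at the base before the Ras85D start site. Capitals mark matches to the 5 motifs searched, here GAGAG at 120 to 116 bp and TATCGATA at 21 to 14 bp upstream of that start.
Ras85D to Rlb1: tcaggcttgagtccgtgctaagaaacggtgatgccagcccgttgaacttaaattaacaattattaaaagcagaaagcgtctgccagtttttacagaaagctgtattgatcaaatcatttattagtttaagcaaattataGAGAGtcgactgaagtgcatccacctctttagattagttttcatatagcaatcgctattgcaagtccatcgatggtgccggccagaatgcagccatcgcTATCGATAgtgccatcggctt

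The Ras85D peaks passed an IDR of 0.01 but are in none of the 4 thresholded lists. Of the 2117 pooled ranked peaks with such an IDR the thresholded list holds 2067, and the 50 it leaves out include both Ras85D summits. On the arms 47 were left out, of which 26 were on 3R. The share of all peaks at such an IDR that lie on 3R was not counted, so the 26 do not show a concentration there. The omission extended to neighbours: a peak of signal 169.8 at rump, 2739 bp downstream of the Ras85D start, and one of 220.8 shared by CG8176, Kdm3 and mRpL47, 2878 bp upstream, were left out as well. The pooled thresholded list has no summit over 51060 bp around Ras85D, between 9504563 and 9555623. Inside that stretch 4 ranked peaks at an IDR of 0.01 or less, spanning 5617 bp, were left out. The spacing of thresholded summits elsewhere was not measured, so the length of the gap is no evidence of omission. The nearest thresholded summit lay 8504 bp from the Ras85D start, and over all protein-coding genes the median was 14063 bp. Peaks were left out in each replicate as well, 46 of 1727 in replicate 1 and 42 of 1389 in replicate 2. Ras85D was among them in both. The readme text lists 1 more input for each thresholded list than for its ranked list and does not say what that input holds; its part in the omission was not tested.

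**Figure D2:**
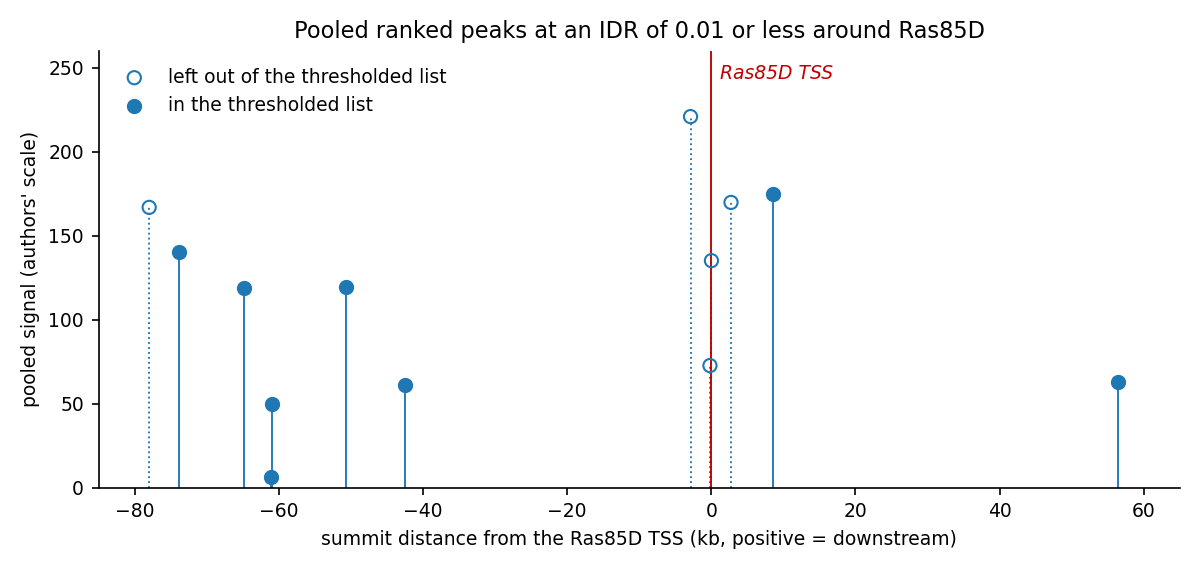
Pooled ranked peaks at an IDR of 0.01 or less around Ras85D, with the summit's distance from the Ras85D start site in kb (horizontal axis, positive downstream on the Ras85D strand) and signal on the authors' scale (vertical axis). Filled points are in the thresholded list and open points are left out of it. The 4 open points near 0 include the Ras85D signals of 135.1 and 72.7.

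Raf (FBgn0003079), the MAP kinase kinase kinase that Ras activates, was the single core gene in the conservative list. The peak chrX:2340004-2340407 had its summit 92 bp upstream of the internal start site at 2340298, inside a 5′ UTR exon of the transcript that starts at 2295466. Its signal of 30.2 was rank 1783 of 2017 in the conservative list, and an overlapping peak 180 bp downstream of the start had 17.8. Its −log10 IDR of 2.07 in the pooled ranked list that holds the conservative peaks was just past the threshold, whereas the same peak had 0.106 in the main pooled ranked list. Replicate 1 had 23.4 at 78 bp upstream (−log10 IDR 1.30) and replicate 2 had 17.0 at 224 bp downstream (0.157). These 2 peaks overlapped by 14.1%, under the 50% taken as shared. The distal start site at 2295466 had peaks of 6.04 and 6.04 in the pooled list, near its lower end.

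A TATCGAT, 1 letter short of the DRE core, spans the internal Raf start site, from 3 bp before it to 3 bp after it, and is shown with 10 bases on either side as the only other such match within 100 bp of a best ranked summit of these genes (chrX:2340285-2340311, dm6, plus strand, 5′ to 3′, capitals marking TATCGAT).
Raf: cctttatcgtTATCGATtggtacagcc

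The scaffold ksr (FBgn0015402), the kinase suppressor of Ras, had a single pooled peak, chr3R:5483516-5483919, with its summit 188 bp downstream of the start site in 5′ UTR and a signal of 33.9. Replicate 1 had 12.3 and replicate 2 had 23.3, at summits 102 bp apart and with an overlap of 72.9%. No other gene's TSS lay within 500 bp of it. The −log10 IDR was 1.60 in the main pooled list and 0.304 in the other. Dsor1 (FBgn0010269), the MAP kinase kinase that Raf phosphorylates, had a pooled signal of 23.6 at 33 bp upstream of its start site at 9247342 on the X chromosome, shared with amx. Replicate 1 had 10.2 near that site, and replicate 2 had 7.72 at the second start site, 578 bp from the summit of replicate 1.

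The MAP kinase rl (FBgn0003256), rolled, which acts last in the relay, had no peak within 500 bp of its 2 start sites, at 1071462 and 1071975 on chromosome arm 2R, in any of the 8 lists. The nearest pooled ranked summit was 9288 bp away. Within 100000 bp on either side of the gene the pooled ranked list had 17 summits, none with a signal above 12.7. That is 6.68 per 100000 bp, and the whole arm had 9550 pooled ranked summits. The density over the arm was not computed, so the missing peak cannot be told apart from a scarcity of candidate peaks around rl. The nearest thresholded summit was 3658449 bp away, the farthest among the 10 genes.

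Ordered by pooled signal, the core genes ran Ras85D (135.1), drk (35.5), ksr (33.9), Egfr (32.4), Raf (30.2), Dsor1 (23.6), csw (23.4) and Sos (17.1), with tor and rl lacking a peak. With 1 pooled value a gene and 2 replicates there is no test of neighbouring ranks, but the replicates put the middle of the order differently. Among core genes Egfr ranked second in replicate 1 and sixth in replicate 2, and ksr ranked seventh in replicate 1 and second in replicate 2. Ras85D was first in both. The replicates' best peaks overlapped by at least 50% at Ras85D, drk and ksr. At Egfr, csw, Raf and Dsor1 they did not, and at tor, Sos and rl at least 1 replicate had no peak. Such overlap was not counted over all protein-coding genes, so it does not set the core genes apart.

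**Figure D3:**
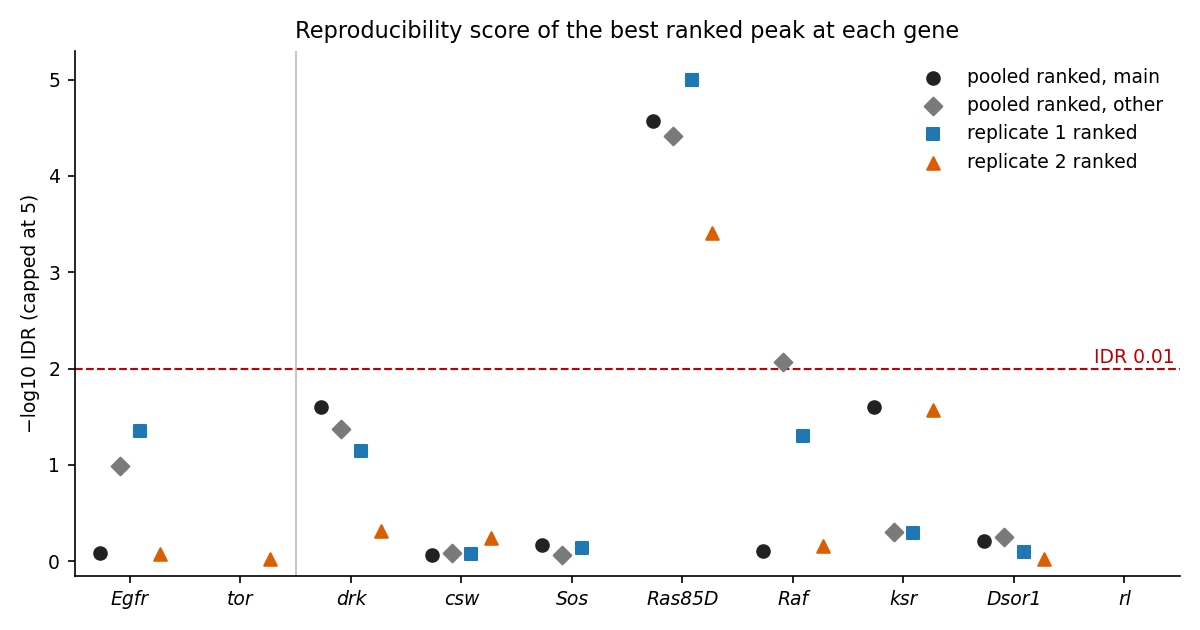
−log10 IDR (vertical axis, capped at 5) of the strongest ranked peak within 500 bp of a TSS at each core gene (horizontal axis), in the 2 pooled ranked lists and each replicate's list; the vertical line divides receptors from intracellular components. Ras85D lies above the dashed line (IDR 0.01) in all 4 lists, Raf in 1 of them at 2.07, and the other genes in none.

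The receptors were set beside the intracellular components with all values above. Their best signals were 32.4 and no peak (Egfr and tor, pooled), against 17.1 to 135.1 at 7 intracellular genes and no peak at rl, so the receptor with a peak lay inside the intracellular range. In replicate 1 the receptors had 25.0 and no peak, against 10.2 to 82.5 at 7 intracellular genes. In replicate 2 the receptors had 8.14 and 6.91, against 7.72 to 47.4 at 6 intracellular genes. The groups overlapped in every list, and 2 receptors are too few for a test.

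Motifs within 100 bp of the best ranked summit were read on both strands at the 8 genes that have one, and a match is a description of the letters only. TATCGATA was present at 1 of 8, Ras85D, against 32.0% of the 2066 thresholded summits on the arms and 4.32% of 5227 best ranked summits at unbound protein-coding genes. TATCGAT, which every TATCGATA contains, was present at 2 of 8, Ras85D and Raf, against 54.6% and 9.49%. GAGAG was present at Egfr, drk and Dsor1, against 15.5% and 24.8%, and TATAAA at drk and Dsor1, against 29.4% and 19.1%. CAGGTAG was at none of the 8, against 0.774% and 1.59%. At Egfr, a TATCGATA lay 88 bp from the second summit, by the distal start site, where the pooled signal was 28.4.

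Binding near the genes but outside the 500 bp window was measured as a distance. The distance from a core gene's nearest TSS to the nearest thresholded summit had a median of 12497 bp, and over the 11527 unbound protein-coding genes the median was 20722 bp. For 5 of the 10 (Egfr, drk, Ras85D, ksr and Dsor1) it was under 10 kb, as for 31.4% of unbound genes. The nearest were 3092 bp from Egfr, at a summit of signal 9.05 by CG10494, and 3709 bp from Dsor1, at a summit of 132.7 by mxc and Larp7. No thresholded summit lay within the body of any of the 10 genes, a count not made over all protein-coding genes. The Ras85D summit in its 5′ UTR is among the peaks left out of the thresholded list. The pooled ranked list had 32 summits in Egfr (37558 bp long), 26 in Raf (48405 bp) and 1 to 8 in each other gene. No background density was computed for these counts.

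Beyond the core, 24 of 79 other genes of the pathway and its neighbours were bound in the pooled thresholded list, 30.4% (20.5% to 41.8%), beside the 17.3% of all protein-coding genes. The list was drawn up with earlier results of these data known, so its share is a description. The median signal of the 24 was 93.9, against 91.1 over all 2418 bound genes, and Ras85D at 135.1 exceeded both. Of the 24, 21 were also bound in the conservative list, beside 2174 of all 2418 bound genes, and that list held 23 of the 79 in all. In both replicates' thresholded lists 14 of the 24 were bound, and in neither 2, Sur-8 and Tak1. These 2 counts were not made over all 2418 bound genes. Peaks found in both replicates at 50% overlap also gave 14, beside 1473 of all 2418 bound genes. At 12 of the 24 the peak was shared with no other gene's start site, a share not counted over all bound genes. At 19 the pathway gene's start site was the nearest, beside 1704 of all 2418 bound genes.

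The counts by role stand beside the 17.3% of all protein-coding genes. Of the scaffolds and cofactors around Raf 7 of 12 were bound. The count was 5 of 12 when a peak is given to the nearest gene only, beside 12.2% of all protein-coding genes by that rule. The 7 include ave (Aveugle, which joins cnk to ksr) with a pooled signal of 510.7, the highest on any chromosome arm. Another was MESK2, named as a misexpression suppressor of ksr, with 500.1. The ave peak lay nearest to a start site of Rpn6 and that of MESK2 was shared with TAF1C-like. The other 5 were the Hsp90 chaperone Hsp83 (150.8, nearest to CG14965), 14-3-3zeta (86.2), the kinase co-chaperone Cdc37 (63.6), the scaffold cnk (50.3) and Sur-8 (44.4). Of the Ras relatives, exchange factors and GTPase-activating proteins 4 of 8 were bound: Rap1 (150.7), Rheb (101.8), the Ras GTPase-activating protein Nf1 (98.7) and Ras64B (72.0, nearest to Rop). Of the kinases of parallel MAP kinase cascades 5 of 11 were bound, each as the nearest gene. They were the JNK kinases Mkk4 (124.1) and hep (89.2), the p38 kinase kinase lic (73.0), Mekk1 (64.6) and Tak1 (44.8). The peaks of Rheb and Mkk4 were shared with CG2931 and SLIRP2, and that of Cdc37 with alpha-Spec and dlt.

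Upstream and downstream of the core the counts were as follows. Ligands and their processing gave 3 of 18: the ligand Krn (226.1, nearest to Ndfip), Star (S, 169.4, nearest to ast) and the ligand spi (45.2). Other receptors gave 1 of 6, Pvr (118.7), the PDGF and VEGF receptor homologue, and adaptors gave 2 of 6, Shc (122.3) and dos (84.6). Feedback genes and phosphatases gave 1 of 7, the tyrosine phosphatase Ptp61F (242.7), and nuclear targets 1 of 11, the ubiquitin ligase sina (51.1). The peaks of spi, Shc and Ptp61F were shared with msb1l, Atat and CG9166, in that order. The unbound genes with the highest pooled ranked signals were wdb (57.1), Src64B (46.2) and lz (42.0). Like Ras85D, wdb had a peak past the threshold in a ranked list, with a −log10 IDR of 2.67 in the other pooled one, that is missing from the thresholded lists. The exact intervals of these roles overlap one another and that of the intracellular core, and no difference between roles was tested.

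**Figure D4:**
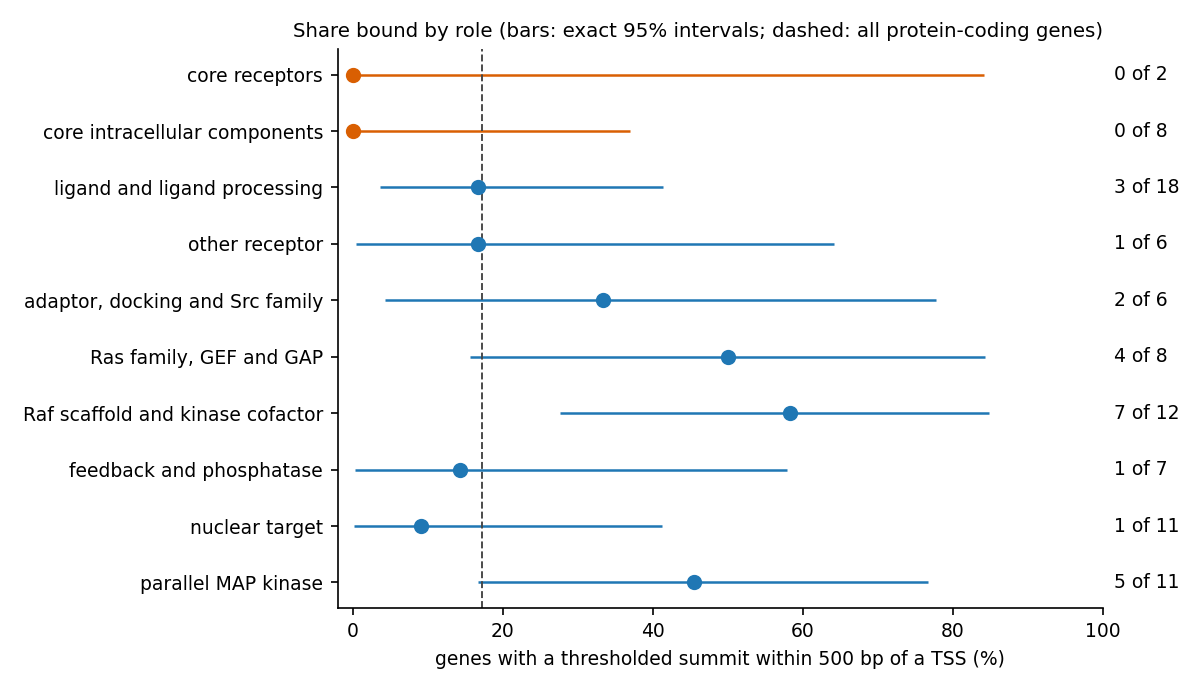
Share of genes with a thresholded summit within 500 bp of a TSS (horizontal axis, percent) by role (vertical axis), with exact 95% intervals as bars and counts at the right. The dashed line is the 17.3% of all protein-coding genes; the core receptors (0 of 2) and core intracellular components (0 of 8) have intervals that contain it.

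The core genes' signals in each replicate's ranked list were set beside those of the 24 bound pathway genes. The 24 ran from 24.5 to 333.0 in replicate 1 and from 11.6 to 192.3 in replicate 2. The other 6 core genes with a peak in both lists ran from 10.2 to 25.0 in replicate 1 and from 7.72 to 23.3 in replicate 2. In replicate 1 Egfr (25.0) exceeded the lowest bound gene, Tak1 (24.5), and the other 5 lay below all 24. In replicate 2 the ranges overlapped, with ksr (23.3), csw (19.2), Raf (17.0) and drk (13.8) each above at least 1 bound gene. The 24 were chosen by passing the threshold, so the comparison carries no test.

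**Figure D5:**
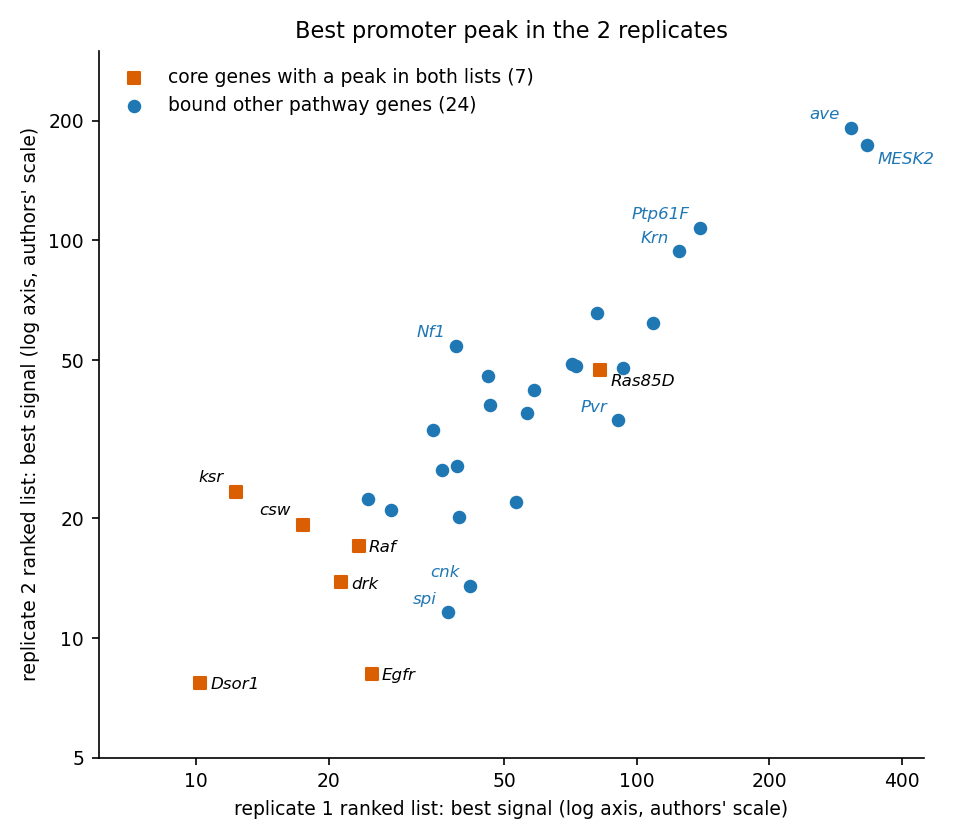
Best promoter signal in the ranked list of replicate 1 (horizontal log axis) and replicate 2 (vertical log axis), on the authors' scale, for the 7 core genes with a peak in both (squares) and the 24 bound other pathway genes (circles, some labelled). Ras85D, at 82.5 and 47.4, lies among the bound genes. The other 6 core genes reach 25.0 in replicate 1 and 23.3 in replicate 2, and overlap the lower end of the bound genes.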

How the data were processed

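CG2129-eGFP ChIP-seq was measured in 2 biological replicates of 0 to 4 h embryos, with chromatin sonicated to 200 to 800 bp, per the labels. The authors deposited peak lists on dm6, per the readme text. Each peak has the authors' signal on an unstated scale, and ranked lists give the −log10 of the IDR, capped at 5, as the deposited values show. Names of aligner and peak caller were not given in the sources used here, read depth is unknown, and the control experiment was not analysed here. In the ranked pooled lists 16 further columns of values were not used.

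Summits were assigned to every TSS within 500 bp (Ensembl 115, BDGP6.54) with Python 3.11.15, pandas 2.3.3, numpy 2.4.6 and scipy 1.17.1, and matplotlib 3.10.9 drew the figures. The 2 replicates were read through their own lists, with an overlap of 50% as shared, and no test was run. The main pooled ranked list is the one holding all 2067 thresholded peaks. All 89 listed genes matched, 1 by a RefSeq synonym. Intervals are exact at 95%. Window assignment and motif search were tested on simulated data. Named were all core genes, genes sharing their TSS windows, every other bound pathway gene and the 3 strongest unbound ones. Members and lists were chosen with earlier results of these data known.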

Additional observations from a re-analysis of the deposited data

How the results depend on the processing

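With every pooled ranked peak, 8 core genes were bound, 1 receptor and 7 intracellular, beside 72 other pathway genes and 8491 protein-coding genes. The conservative list gave 1 core gene, an intracellular one. Ranked peaks at an IDR of 0.01 or less, chosen after seeing the data, gave 1 core gene in the main pooled list, 2 in the other pooled list, 1 in replicate 1 and 1 in replicate 2, all intracellular; in replicate 2 they gave 15 other pathway genes. The core count stayed at 0 of 10 under the other alternatives. Most of these could only give 0, because they only remove peaks or assignments from the main list. These are the median signal, the IDR of 0.001, peaks of both replicates, the 200 bp window and the nearest gene only. The count could have changed only with a replicate left out or with the 1000 bp window. The share of all protein-coding genes beside the core count was 12.2% and 14.9% with replicate 1 or 2 left out, 10.6% at or above the median signal and 11.8% at an IDR of 0.001. It was 10.6% with peaks of both replicates at either overlap, 15.0% and 18.9% with windows of 200 and 1000 bp, and 12.2% with the nearest gene only. For other pathway genes, leaving out a replicate gave 15 to 24. Peaks at or above the median signal gave 15 other pathway genes and 1482 protein-coding genes. Peaks found in both replicates gave 14 other pathway genes at either overlap, and 1473 (50% overlap) and 1484 (1 bp) protein-coding genes. The cause of these moves was not tested. No paired analysis was possible because the design has 1 group and no test. Read depth is unknown, so a missing peak is no evidence of absence.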
